A study of Mus musculus with 13 samples.

Results

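This comparison set common lymphoid progenitors (CLPs) of Notch1+/dTAD mice against CLPs of Notch1+/- mice, and its members were all libraries that the labels give to those 2 genotypes: 3 Notch1+/dTAD and 5 Notch1+/- libraries, 8 of the 13 in the series. The other 5 libraries were WT and served only as a reference level. Both mutant genotypes keep 1 unaltered Notch1 allele. The Notch1+/- mice carry 1 null allele in place of the other, from a line obtained from a repository. In the Notch1+/dTAD mice 1 allele is without its transactivation domain. In the study's model its protein competes with the unaltered protein for RBPJ sites and still activates transcription, but weakly. It does not recruit the coactivators that depend on this domain. The comparison therefore asks what the truncated protein does beyond the loss of a functional allele. All mice were adult C57BL/6 animals of 6 to 12 weeks, and CLPs were sorted from bone marrow as DAPI-/Lin-/Sca1Lo/cKitLo/CD127+/CD135+ cells. Each library came from 1 mouse, the sex of which is not given in the labels. Both alleles are germline, so the genotype was not restricted to the CLPs or to any stage of their development.

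Notch receptors are cleaved on contact with a ligand on a neighbouring cell, and the released intracellular part moves to the nucleus, where it binds RBPJ and brings in Mastermind proteins and histone acetyltransferases to activate target genes such as Hes1 and Dtx1. The transactivation domain near the end of Notch1 strengthens that output. CLPs are bone marrow progenitors that can form B, T and natural killer cells, and Notch signals direct lymphoid progenitors to the T cell fate.

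Expression was measured as TPM (transcripts scaled to a fixed total per library) from 3′-end RNA sequencing of small amounts of total RNA. The depth of the libraries is unknown because the tables hold no counts, so that no counting interval could be set on a single value. Of 24972 genes in the tables, 9534 were above 0 in any of the 8 libraries, 814 were at 1 TPM or more in all 8, and 4980 were at 1 TPM or more in at least 3 and were tested. Notch1+/dTAD libraries listed 3984, 4168 and 4663 genes at 1 TPM or more, and Notch1+/- libraries 2818 to 4736 with a median of 3388, which was no difference beyond the spread (two-sided exact permutation test, p = 0.286 over 3 against 5 libraries). The libraries numbered 12, 13 and 14, which include both genotypes, listed the most genes, and a term for the range of library numbers (1 to 9, or 10 to 14) was among the alternatives fitted. Pearson correlation of log2(TPM + 1) over the genes tested lay between 0.393 and 0.448 for pairs of Notch1+/dTAD libraries, between 0.336 and 0.463 for pairs of Notch1+/- libraries and between 0.354 and 0.475 for pairs of different genotypes. The 3 ranges overlapped. These are correlations across genes, which are not independent replicates.

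**Figure D1:**
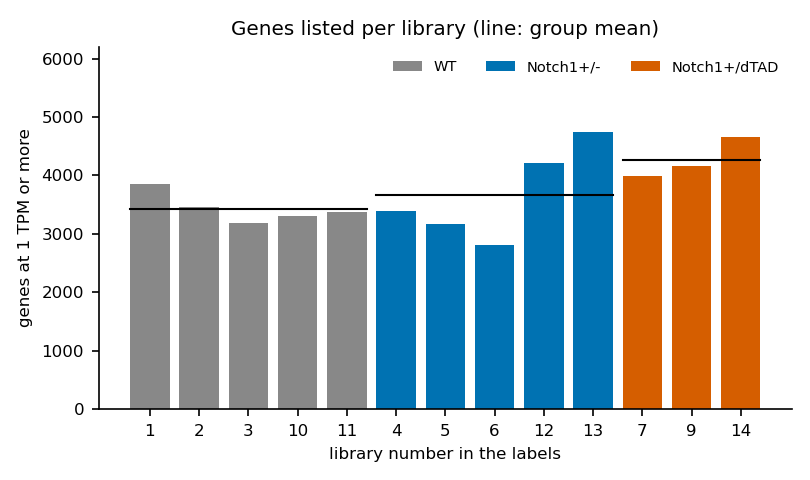
Number of genes at 1 TPM or more (y axis) in each library (x axis, by its number in the labels) for WT, Notch1+/- and Notch1+/dTAD CLPs, with a line at each group's mean. The 3 Notch1+/dTAD bars, at 3984 to 4663 genes, lie within the 2818 to 4736 genes of the 5 Notch1+/- bars.

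No gene passed the test across all genes. With limma and Benjamini-Hochberg adjustment, 0 of 4980 genes (0%) were below an adjusted p of 0.05, 0 were below 0.1, and the smallest adjusted p was 0.458. An unadjusted p under 0.05 was reached by 241 genes (4.84%), 193 (3.88%) with the higher mean in Notch1+/dTAD CLPs and 48 (0.964%) with the lower. In 168 genes (3.37%) the Notch1+/dTAD libraries did not overlap the Notch1+/- libraries, 129 (2.59%) of them higher in Notch1+/dTAD and 39 (0.783%) lower, and 116 genes met both criteria. Of the 129 higher genes, 36 were under 1 TPM in every Notch1+/- library and passed the filter only through the Notch1+/dTAD libraries. Of the 39 lower genes, 11 were under 1 TPM in every Notch1+/dTAD library. The splits into higher and lower genes, and the shares used below as background, depend on the filter in this way. The median log2 difference over all genes tested was 0.35 on the deposited TPM and 0.01 after quantile normalization, with 148 genes higher and 64 lower at an unadjusted p under 0.05 on the latter scale. With the filter set at 1 TPM in at least 5 libraries, 73 were higher and 44 lower. Differences of single genes are therefore given beside that median of 0.35. In a model of all 13 libraries, in which the WT libraries entered the estimate of the spread, 4 genes were below an adjusted p of 0.05: Sirt2, Cab39l, Slc36a1 and Clec9a, all higher in Notch1+/dTAD. All 4 were below 1 TPM in every Notch1+/- and WT library and passed the filter on low values only through the 3 Notch1+/dTAD libraries, so that they had to differ and their adjusted p-values in that model are a description, not independent support.

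The precision of the comparison depended on the level of a gene. The median standard error of the log2 difference was 1.86 and the median width of its 95% interval 7.96, so that for a typical gene a difference of several log2 units in either direction was not detectable. Among the 143 genes above a mean of 1000 TPM the median standard error was 0.44, and for 117 of them the 95% interval lay within 2 log2 units of 0. Only 3 of those 143 genes, 2 of them higher in Notch1+/dTAD, were at an unadjusted p under 0.05. Of all 4980 genes, the interval lay within 2 log2 units of 0 for 186 and within 1 for 48. Abundant transcripts, such as those of cytosolic ribosomal proteins, therefore bounded the difference closely, and genes of 10 to 100 TPM, which made up 2981 of the genes tested, hardly bounded it at all. The plot of differences and interval widths against level shows this.

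**Figure D2:**
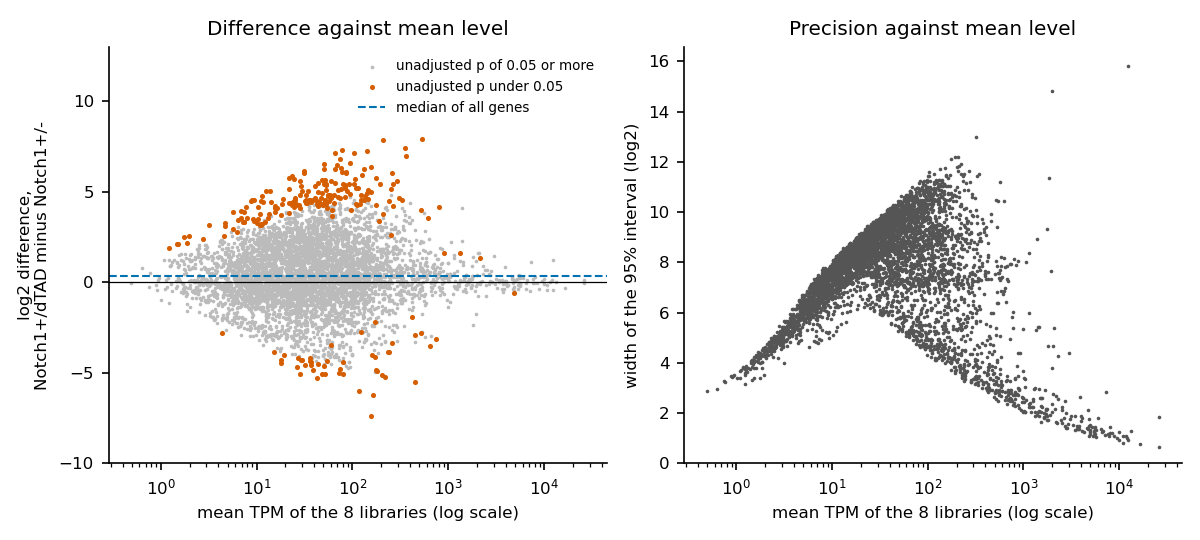
Left, log2 difference between Notch1+/dTAD and Notch1+/- CLPs (y axis) against the mean TPM of the 8 libraries (x axis, log scale) for the 4980 genes tested, with the 241 genes at an unadjusted p under 0.05 in orange and the median of all genes, 0.35, as a dashed line. Right, the width of the 95% interval of that difference against the same mean, which is narrow mainly above 1000 TPM.

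The genes named first lead the list by p in each direction, 8 higher and 8 lower, among those whose libraries did not overlap, so their separation was what chose them and their p-values describe rather than test them. Each of the 16 had an exact two-sided permutation p of 0.0179, the smallest that 3 against 5 libraries allow over 56 splits. The size of the differences depended on the pseudocount, here 1, and 13 of the 16 moved by over 1.5 times with another. The log2 difference of Asf1b was 10.2 with a pseudocount of 0.1 and 4.19 with one of 10, that of Sirt2 10.1 and 3.99, and that of Ngdn -9.81 and -4.46, whereas that of Cox7a2l was -2.9 and -2.74.

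Several of the genes higher in Notch1+/dTAD CLPs were at or near 0 in every Notch1+/- library. Asf1b (chromosome 8, 83955507 to 83970197 in GRCm38, plus strand), a histone chaperone of dividing cells, was at 365, 72.6 and 192 TPM in the Notch1+/dTAD libraries 7, 9 and 14, at 0.559 TPM in Notch1+/- library 4 and listed at 0 in the other 4. Its log2 difference was 7.31 (SE 1.68, adjusted p = 0.458, limma). All 3 Notch1+/dTAD libraries were above all Notch1+/- libraries, and WT libraries spanned 0.531 to 260 TPM. Sirt2 (chromosome 7, 28766735 to 28788661, plus strand), an NAD-dependent deacetylase, was at 210, 261 and 58.8 TPM in Notch1+/dTAD, at 0.33 TPM in Notch1+/- library 12 and listed at 0 in the other Notch1+/- and in all WT libraries. The log2 difference was 7.14 (SE 1.66, adjusted p = 0.458), and in the model of 13 libraries its adjusted p, a description only as said above, was 0.0316. Neither genotype overlapped the other, and the Notch1+/dTAD libraries were also above every WT library. Cab39l, a scaffold protein of the LKB1 kinase complex, was at 42, 91.6 and 40.6 TPM in Notch1+/dTAD and reached no more than 0.133 TPM in Notch1+/- and 0.3 TPM in WT. The log2 difference was 5.74 (SE 1.45, adjusted p = 0.458), and the model of 13 libraries gave an adjusted p of 0.0346, with the same limit. Sirt2 and Cab39l were thus separated from both other genotypes, whereas Asf1b was not separated from WT.

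Cd7 (chromosome 11, 121036747 to 121039418, minus strand), a surface protein of T and natural killer lineage cells and of some of their progenitors, was at 402, 276 and 140 TPM in Notch1+/dTAD, at 17.2 TPM in Notch1+/- library 4, and listed at 0 in the other 4 Notch1+/- and in all 5 WT libraries. Its log2 difference was 7.13 (SE 1.8, adjusted p = 0.458), with the lowest Notch1+/dTAD library well above the one Notch1+/- library that listed it. Ifitm1, an interferon-induced membrane protein, was at 505, 124 and 485 TPM in Notch1+/dTAD and at 32.5 TPM in Notch1+/- library 6 alone, with a log2 difference of 7.28 (SE 1.86, adjusted p = 0.458). Its WT libraries were split, with 588 and 813 TPM in libraries 10 and 11 and no more than 0.745 TPM in the other 3. Bola2, which takes part in iron-sulfur cluster handling, was at 19.4, 1128 and 544 TPM in Notch1+/dTAD and listed at 0 in all 5 Notch1+/- libraries. The log2 difference was 7.86 (SE 1.85, adjusted p = 0.458). The Notch1+/dTAD libraries differed widely among themselves for Bola2, and WT libraries 1 and 2 were at 201 and 27.4 TPM with the rest listed at 0.

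The other 2 genes of this group were the membrane fusion protein Stx2 and the chromatin-associated protein Morf4l2. Stx2 was at 69, 74.7 and 42.3 TPM in Notch1+/dTAD against at most 0.185 TPM in Notch1+/-, and WT library 2, at 122 TPM, exceeded them all. Morf4l2 was at 119, 305 and 160 TPM in Notch1+/dTAD and at 5.43 and 0.733 TPM in Notch1+/- libraries 12 and 13, with the other 3 listed at 0. The log2 differences were 5.89 for Stx2 and 6.8 for Morf4l2. In WT, Morf4l2 was listed at 0 in library 3 and lay between 43.7 and 161 TPM in the other 4.

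The gene with the smallest p in the whole comparison was lower in Notch1+/dTAD. Ngdn (chromosome 14, 55015454 to 55024137, plus strand), which encodes neuroguidin, a protein that binds the translation initiation factor eIF4E, was at 423, 363, 233, 124 and 113 TPM in Notch1+/- libraries 4, 5, 6, 12 and 13, was listed at 0 in Notch1+/dTAD libraries 7 and 9 and was at 1.36 TPM in library 14. The log2 difference was -7.37 (SE 1.4, 95% interval -10.4 to -4.37, unadjusted p = 0.000115, adjusted p = 0.458, limma). Every Notch1+/- library was above every Notch1+/dTAD library, but WT libraries ran from 0.745 to 926 TPM and so covered both. Park7 (chromosome 4, 150897133 to 150914437, minus strand), a protein that protects cells from oxidative stress, was at 427, 897, 1036, 230 and 846 TPM in Notch1+/- and at 2.27, 3.65 and 149 TPM in Notch1+/dTAD. Its log2 difference of -5.51 (SE 1.28, adjusted p = 0.458) was -7.56 within the libraries numbered 1 to 9 and -1.56 within those numbered 10 to 14. Library 14, the highest of the Notch1+/dTAD libraries, was the only one of that genotype in the second range. Cox7a2l, which helps to assemble respiratory supercomplexes, was detected in all 8 libraries, at 427 to 1108 TPM in Notch1+/- and at 47.7, 67 and 175 TPM in Notch1+/dTAD. Its difference had the smallest standard error of the 8, at a log2 difference of -2.88 (SE 0.79, adjusted p = 0.485).

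The other 5 lower genes were Bet1l, Gps2, Cul1, H2afj and Cyb5r3. Bet1l, a protein of vesicle transport in the Golgi, was at 56.4 to 576 TPM in Notch1+/- and at 1.7, 0.895 and 1.03 TPM in Notch1+/dTAD. Gps2, a subunit of the NCoR/SMRT corepressor complex, was at 388, 356, 742, 270 and 55.1 TPM in Notch1+/- and at 34.2, 6.26 and 25.1 TPM in Notch1+/dTAD. Cul1, the scaffold of SCF ubiquitin ligases, was at 28.9 to 101 TPM in Notch1+/- and at most 2.87 TPM in Notch1+/dTAD. The log2 differences of Bet1l, Gps2 and Cul1 were -6.22, -3.87 and -5.06. The histone H2A variant H2afj lay at 31.9 to 120 TPM against at most 1.37 TPM, and the reductase Cyb5r3 at 42.3 to 225 TPM against 0, 28.5 and 0.617 TPM. For each of these 5 genes at least 1 WT library was at 0 and at least 1 was above every Notch1+/dTAD library, so WT values reached both genotypes. The plot of the 16 genes by library also shows the WT libraries, which for Asf1b, Morf4l2, Ngdn and Gps2 spread over most of the range of both mutants.

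**Figure D3:**
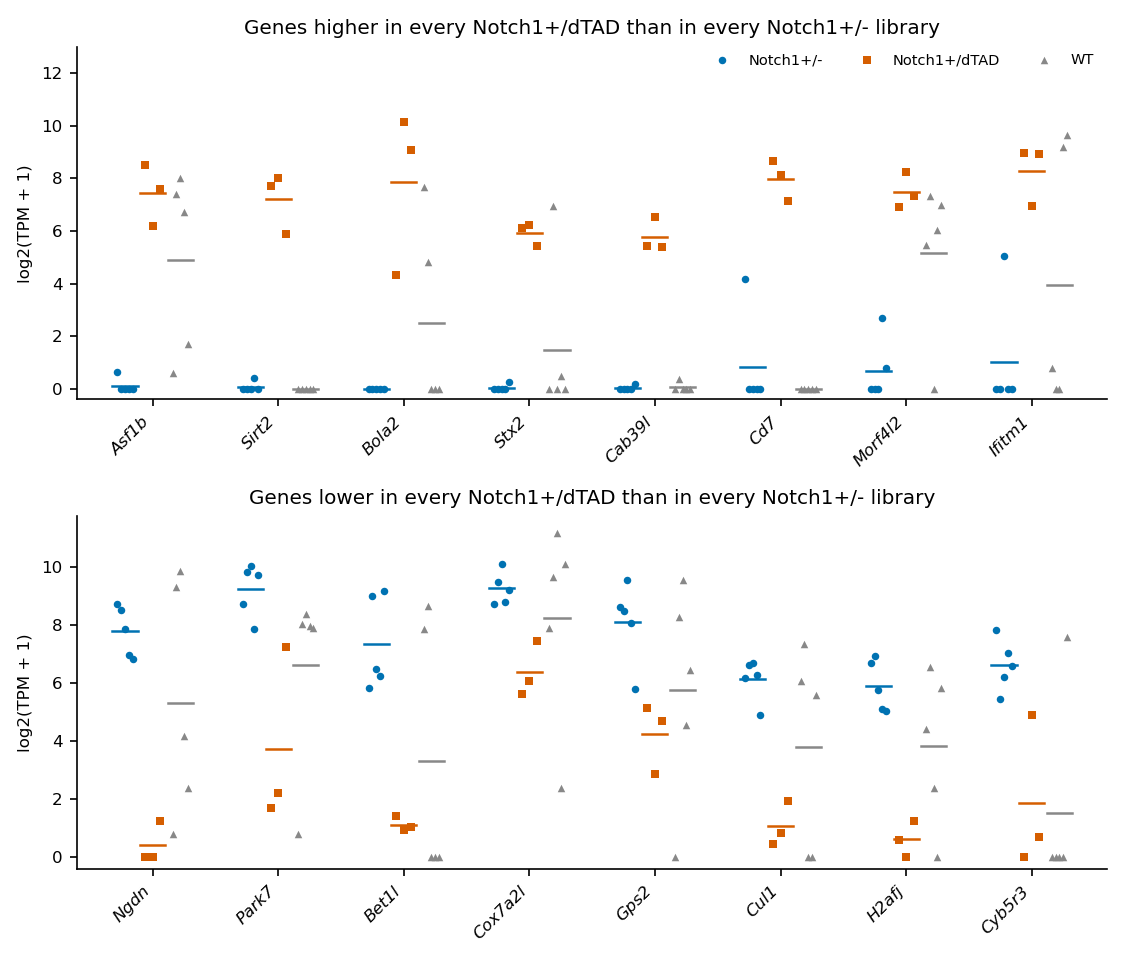
Level as log2(TPM + 1) (y axis) of the 16 genes named by p among those whose libraries did not overlap, with 1 point per library and a line at each genotype's mean. Notch1+/dTAD points lie wholly above (top) or below (bottom) the Notch1+/- points, while WT points are at 0 for Sirt2 and Cd7 and reach both mutants for genes such as Ngdn.

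Few genes were listed at 0 throughout one mutant and at a set level throughout the other. There were 6 genes (0.12% of those tested) listed at 0 in all 5 Notch1+/- libraries and at 10 TPM or more in all 3 Notch1+/dTAD libraries, and 0 with the reverse pattern. A lower bar of 1 TPM gave 13 genes and 1 gene. A group of 3 libraries is more easily at 0 throughout than a group of 5, and the filter also shapes these counts. A gene at 0 in all 5 Notch1+/- libraries was tested only if all 3 Notch1+/dTAD libraries were at 1 TPM or more. Of the 4980 genes, 73 were at 0 in all Notch1+/dTAD and 13 in all Notch1+/- libraries. For both reasons these counts do not compare the genotypes. Mrps15, a protein of the mitochondrial ribosome, was at 23.4, 30.2 and 45.9 TPM in Notch1+/dTAD, and reached 215 and 22.2 TPM in WT libraries 10 and 11. Slc36a1, a lysosomal amino acid transporter, was at 24.6, 65.6 and 20.8 TPM in Notch1+/dTAD and at 0 in every Notch1+/- and WT library. Cd2bp2, a splicing-associated protein that binds CD2, was at 12.6, 167 and 50.4 TPM and was also listed in WT libraries 1 and 11. With Bola2, these were the 4 chosen by rule. The other two, Clec9a and Bap1, and Rpia below were named after their values were seen. Clec9a, a dendritic cell receptor for dead cells, was at 39.3, 11.1 and 41.2 TPM in Notch1+/dTAD and at 0 in every other library, and the model of 13 libraries gave Slc36a1 an adjusted p of 0.0361 and Clec9a one of 0.0419. Both genes passed the filter only through the libraries that set them apart, so these values describe them and test nothing further. Bap1, a deubiquitinase, was at 10.5, 63.7 and 14.2 TPM. Rpia, an enzyme of the pentose phosphate pathway, was the one gene with the reverse pattern, at 3.9 to 92.4 TPM in Notch1+/- and 0 in all 3 Notch1+/dTAD libraries.

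Set against WT, most of these separated genes were not separated from WT as well. Of the 129 genes higher in every Notch1+/dTAD library, 118 were at 1 TPM or more in at least 1 WT library, and in 105 the highest WT library reached the lowest Notch1+/dTAD library. Only 8 were at 0 in all 5 WT libraries. Of the 39 lower genes, 38 were at 1 TPM or more in some WT library, and in 36 the lowest WT library was at or below the highest Notch1+/dTAD library. The Notch1+/dTAD libraries were thus beyond every WT library in 24 of the 129 higher and 3 of the 39 lower genes.

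Upstream sequence was compared for the recognition core of RBPJ, the DNA-binding partner through which both Notch1 proteins act. The core was searched as TGGGAA on either strand, with TTCCCA as its reverse, in the 250 bases before each RefSeq start (GRCm38.p6). It was present upstream of 24.1% of all 27025 genes with a window and of 23.3% of the 4003 tested genes with one. Of the 129 higher genes 100 had a window and 23 of these (23%) held the core, and of the 39 lower genes 33 had one and 6 (18.2%) held it. The 16 genes above included 13 with a window, of which 4 held the core: Bola2, Stx2, Ifitm1 and Morf4l2. A match is only a string of letters in this window, and sites elsewhere in a gene were not searched. The 5 sequences below are shown because they belong to the gene with the smallest p, to 2 genes present only in Notch1+/dTAD libraries among the mutants, and to the interleukin 21 receptor and its partner chain. None overlaps an exon of the GENCODE annotation. They are printed 5′ to 3′ on the gene's strand, with the core in capitals where it occurs.
Cd2bp2: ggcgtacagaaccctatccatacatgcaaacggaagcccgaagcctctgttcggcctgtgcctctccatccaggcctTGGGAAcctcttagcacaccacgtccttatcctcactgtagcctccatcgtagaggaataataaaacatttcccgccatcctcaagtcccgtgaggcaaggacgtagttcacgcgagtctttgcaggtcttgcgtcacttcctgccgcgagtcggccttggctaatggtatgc
Slc36a1: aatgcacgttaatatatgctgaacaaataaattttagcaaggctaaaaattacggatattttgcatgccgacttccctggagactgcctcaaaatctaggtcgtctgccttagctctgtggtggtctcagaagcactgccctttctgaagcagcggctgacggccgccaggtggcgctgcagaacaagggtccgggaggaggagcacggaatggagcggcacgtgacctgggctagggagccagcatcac
Ngdn: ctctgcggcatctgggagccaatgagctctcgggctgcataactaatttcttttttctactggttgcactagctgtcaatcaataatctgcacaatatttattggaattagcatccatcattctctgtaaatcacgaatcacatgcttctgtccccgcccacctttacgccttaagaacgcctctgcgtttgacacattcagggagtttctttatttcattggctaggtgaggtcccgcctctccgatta
Il2rg: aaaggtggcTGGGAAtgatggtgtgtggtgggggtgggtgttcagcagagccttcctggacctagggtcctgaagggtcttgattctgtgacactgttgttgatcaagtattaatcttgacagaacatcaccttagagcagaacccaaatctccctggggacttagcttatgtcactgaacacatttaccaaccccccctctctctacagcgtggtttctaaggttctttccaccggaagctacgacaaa
Il21r: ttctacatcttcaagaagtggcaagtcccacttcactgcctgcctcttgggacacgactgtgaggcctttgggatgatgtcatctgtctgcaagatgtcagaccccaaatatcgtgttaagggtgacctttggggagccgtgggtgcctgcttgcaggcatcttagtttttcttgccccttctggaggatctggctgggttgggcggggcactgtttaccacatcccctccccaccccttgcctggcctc
They come from chr7:127196078-127196327 (Cd2bp2, minus strand), chr11:55204090-55204339 (Slc36a1, plus strand), chr14:55015204-55015453 (Ngdn, plus strand), chrX:101268256-101268505 (Il2rg, minus strand) and chr7:125603179-125603428 (Il21r, plus strand). The core occurred in Cd2bp2 and Il2rg and not in the windows of Slc36a1, Ngdn or Il21r.

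Of the Notch pathway genes, Notch1 itself came first as the altered gene. It was at 34.8, 35.1, 78.5, 25.8 and 9.27 TPM in the Notch1+/- libraries and at 32.4, 35 and 0.893 TPM in the Notch1+/dTAD libraries. Libraries 7 and 9 lay inside the Notch1+/- range and library 14 below it. The log2 difference was -1.23 (SE 1.66, 95% interval -4.78 to 2.31, adjusted p = 0.999, limma, exact permutation p = 0.393), and without library 14 it was 0.17. The deposited TPM give a single level for the gene and do not separate its alleles, so that this level was no check of the genotype labels. Notch2, which CLPs can also use, was at 33.6 TPM in Notch1+/- library 4 and 34.6 TPM in Notch1+/dTAD library 7 and at no more than 0.831 TPM in the other 6 libraries, too few for a test. Rbpj was at 0, 21 and 32.3 TPM in Notch1+/dTAD and between 0.463 and 38.4 TPM in Notch1+/-, with a log2 difference of -0.23 (SE 2). The coactivator Maml1 was above 0 in 1 library of the 8, at 0.358 TPM.

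Notch targets were sparse. Over all genes tested, 59.5% had a higher mean in Notch1+/dTAD, and list counts are read beside that share. Of 16 genes in the list, 10 were at 0 in all 8 libraries and 4 were tested, 3 of them with a higher and 1 with a lower mean in Notch1+/dTAD and 0 with an unadjusted p under 0.05. Hes1 (chromosome 16, 30064384 to 30067796, plus strand), a transcriptional repressor, was at 109, 44.2 and 16.9 TPM in Notch1+/dTAD and at 50.9, 79.4, 0.782, 0 and 6.92 TPM in Notch1+/-. Its groups overlapped, with a log2 difference of 2.31 (SE 1.93, adjusted p = 0.975). Dtx1, a ubiquitin ligase of the pathway, was at 0 in all 13 libraries. Deptor, an inhibitor of mTOR, was at 0 in all 8 mutant libraries and in 3 of 5 WT libraries, with 45.5 and 16.1 TPM in WT libraries 10 and 11, so that the mutants could not be told apart by it. Myc was at 6.39 TPM or less in all 8.

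Il21r (chromosome 7, 125603429 to 125633570, plus strand), the receptor of interleukin 21, was the pathway gene on which the study turned, and the study chose it on these libraries. It was at 191, 0, 0, 44.6 and 280 TPM in the Notch1+/- libraries 4, 5, 6, 12 and 13, listed at 0 in Notch1+/dTAD libraries 7 and 9 and at 0.447 TPM in library 14. All 3 Notch1+/dTAD libraries were low, but so were Notch1+/- libraries 5 and 6, and the groups overlapped. The log2 difference was -4.07 (SE 2.24, 95% interval -8.86 to 0.73, unadjusted p = 0.0904, adjusted p = 0.959, limma), with an exact permutation p of 0.214 for 3 against 5 libraries. It was -2.53 within the libraries numbered 1 to 9 and -6.29 within those numbered 10 to 14. All WT libraries listed it, at 15.2 to 295 TPM. The difference in mean log2(TPM + 1) from WT was -6.12 for Notch1+/dTAD and -2.06 for Notch1+/-, 2 comparisons that share the WT libraries. For Il21r the study did not rest on these libraries alone. By qRT-PCR of sorted CLPs it reported lower Il21r in Notch1+/dTAD than in WT mice. That assay did not include Notch1+/- CLPs. The study also reported lower Il21r in short cultures given a γ-secretase inhibitor, and activity of an intronic RBPJ site in a reporter. From the RNA sequencing it described Il21r as unaffected in Notch1+/- CLPs.

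The list of receptors that use the common gamma chain, with their JAK and STAT proteins, had 9 of 19 genes tested, of which 8 had a higher and 1 a lower mean in Notch1+/dTAD, with 0 at an unadjusted p under 0.05 (background 4.84%). The 1 lower gene was Il21r. The median log2 difference was 0.32, beside 0.35 for all genes, and after quantile normalization 4 of the 9 were higher. Il2rg, the common gamma chain itself, was at 840, 0 and 126 TPM in Notch1+/dTAD and at 505, 0, 0.855, 145 and 510 TPM in Notch1+/-, and both genotypes had libraries at or near 0. Its log2 difference of 0.36 had an SE of 2.54 and turned to -0.29 after quantile normalization. Jak3, the kinase that binds that chain, was at 0, 21.5 and 12.8 TPM in Notch1+/dTAD and at 23.4 TPM in 1 Notch1+/- library.

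**Figure D4:**
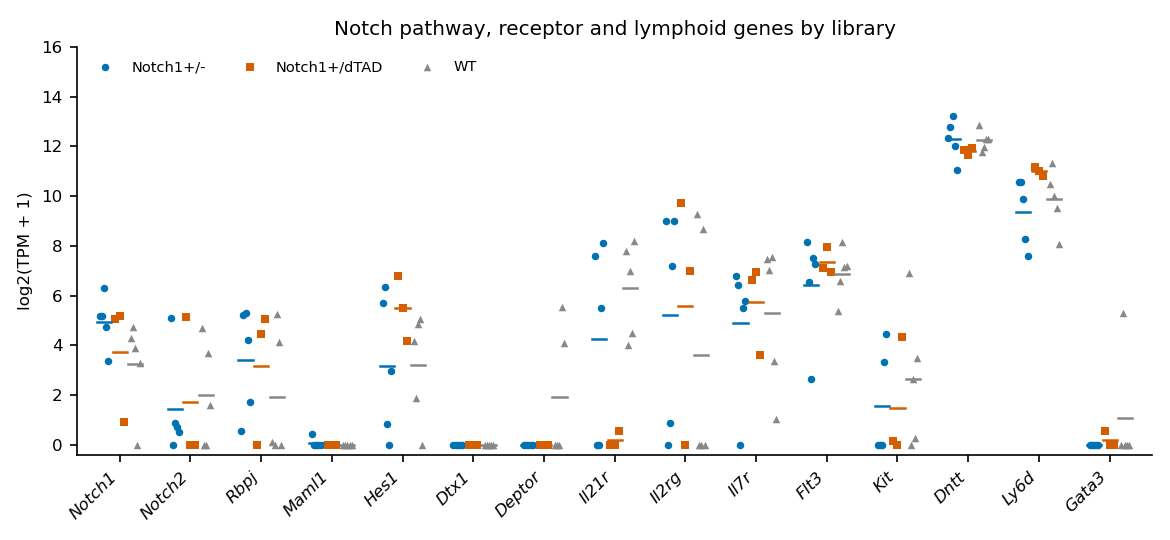
Level as log2(TPM + 1) (y axis) of Notch pathway, cytokine receptor and lymphoid genes in each library of the 3 genotypes, with a line at each mean. Il21r points of Notch1+/dTAD lie at 0 to 0.447 TPM together with 2 Notch1+/- points, and Ly6d is the gene in the plot whose 3 Notch1+/dTAD points lie above all Notch1+/- points.

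Of the other Notch lists, proteins that process the receptor had 7 of 18 genes tested (4 higher, 3 lower, median log2 difference 0.01) and nuclear cofactors 12 of 16 (5 higher, 7 lower, median -0.22), with 0 at an unadjusted p under 0.05 in either. Both medians were below the 0.35 of all genes, but that of the cofactors was 0.25 without Notch1+/- library 6 and that of the processing proteins ran from -0.44 to 0.23 when 1 library was left out. In 2 of the 12 cofactor genes the libraries did not overlap and were higher in Notch1+/dTAD (background 2.59%). Hdac1, a histone deacetylase, was at 265, 308 and 262 TPM in Notch1+/dTAD and at 51.6, 90.3, 0, 120 and 123 TPM in Notch1+/-. The Notch1+/dTAD libraries lay within a narrow range above all of these, with a log2 difference of 2.9 (SE 1.57, adjusted p = 0.959). Ncor1, the nuclear receptor corepressor, was at 98.6, 187 and 110 TPM against 21.2 to 87.7 TPM (log2 difference 1.29, SE 1.14, adjusted p = 0.99). The acetyltransferase Ep300 was at 0.0517, 0.241 and 4.42 TPM in Notch1+/dTAD and at 2.68 to 10.1 TPM in Notch1+/-, where library 14 overlapped. WT libraries of Hdac1 and Ncor1 reached both mutants.

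The sort took cells by surface protein, so the RNA levels of its markers are a description and do not check the gate. Flt3 (CD135) was above 0 in all 8 libraries, at 123 to 250 TPM in Notch1+/dTAD and 5.21 to 281 TPM in Notch1+/-. Il7r (CD127) was at 96.8, 122 and 11.4 TPM in Notch1+/dTAD and at 110, 84, 44 and 53.9 TPM in Notch1+/-, with library 6 at 0. Kit and Ly6a (Sca1), for which the gate took low cells, were each listed at 0 in 3 Notch1+/- libraries, library 6 among them. The summed level of the 4 markers was 5.21 TPM in that library, all of it Flt3. It was 176 to 810 TPM in the other Notch1+/- libraries and 155 to 376 TPM in Notch1+/dTAD. None of the 4 differed beyond its error, and the log2 differences of Il7r and Flt3 were 0.83 (SE 1.77) and 0.93 (SE 1.3).

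Lymphoid priming genes gave the most precise lymphoid values. Of 25 genes 19 were tested, 7 higher and 12 lower, with a median log2 difference of -0.22 beside 0.35 for all genes, and 1 was at an unadjusted p under 0.05 (background 4.84%). The median was 0.18 without Notch1+/dTAD library 14 and 0.1 without library 7. The 1 gene was Ly6d (chromosome 15, 74762056 to 74763620, minus strand), a surface protein that marks the B cell-directed part of the CLPs. Ly6d was at 2302, 2065 and 1801 TPM in Notch1+/dTAD libraries 7, 9 and 14 and at 1538, 1502, 933, 309 and 194 TPM in Notch1+/- libraries 4, 5, 6, 12 and 13. All 3 Notch1+/dTAD libraries were above all 5 Notch1+/- libraries, by a log2 difference of 1.62 (SE 0.7, 95% interval 0.13 to 3.11, unadjusted p = 0.0353, adjusted p = 0.959, limma). An exact permutation test of the means gave p = 0.107 over 3 against 5 libraries. The difference was 0.75 within the libraries numbered 1 to 9 and 2.87 within those numbered 10 to 14, so it was higher in both. In bulk RNA, more cells of a type and more RNA per cell cannot be told apart. WT libraries, at 271 to 2559 TPM, overlapped both genotypes. Dntt, the terminal transferase of early lymphocytes, was at 3705, 3267 and 3902 TPM in Notch1+/dTAD and at 2095 to 9616 TPM in Notch1+/-, with a log2 difference of -0.46 whose 95% interval ran only from -1.34 to 0.42. Ikzf1, a lymphoid transcription factor, was at 16.4, 38.3 and 88.5 TPM against 43.1 to 188 TPM and overlapped.

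Markers of the T and natural killer lineages were mostly listed at 0, whereas 4 of the 14 B lineage genes were at 0 in all 8 libraries. Of the 24 T and natural killer genes measured, 17 were at 0 in all 8 libraries, and all 4 genes tested had a higher mean in Notch1+/dTAD, Cd7 among them. Gata3, which is not in that list, was at 0.484 TPM in 1 Notch1+/dTAD library and at 0 in the other 7. Nkg7, a granule protein of natural killer cells, was at 9.09, 262 and 0 TPM in Notch1+/dTAD and at 36.7 TPM in 1 Notch1+/- library. The summed level of the T and natural killer list was 624 to 1212 TPM in Notch1+/dTAD and 153 to 1508 TPM in Notch1+/-. Of 7 B lineage genes tested 5 were higher and 2 lower (median 1.07). The 2 lower genes were Pax5 and Blk, with log2 differences of -0.86 and -0.53 and overlapping libraries. Vpreb1, a surrogate light chain, was at 609, 985 and 65.2 TPM in Notch1+/dTAD and at 94.4, 72.2, 1029, 0 and 0.55 TPM in Notch1+/-, where library 6 exceeded all others.

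Of 10 myeloid genes tested, 8 were higher and 2 lower in Notch1+/dTAD, with a median log2 difference of 1.69, or 1.09 after quantile normalization. S100a9, a calcium-binding protein of neutrophils and monocytes, was at 397, 138 and 528 TPM in all 3 Notch1+/dTAD libraries and at 0, 0, 1001, 0 and 1.1 TPM in Notch1+/-. Notch1+/- library 6 held more of it than any Notch1+/dTAD library, and the log2 difference was 6.06 (SE 2.25, unadjusted p = 0.0173, adjusted p = 0.91, limma). WT libraries of S100a9 ran from 0 to 871 TPM. Lyz2, lysozyme, was at 90.9, 0 and 61.1 TPM in Notch1+/dTAD and at no more than 5.9 TPM in Notch1+/-. The 2 lower genes were Ctsg and Cebpa, with log2 differences of -1.12 and -0.37. Ctsg was at 0, 0 and 159 TPM in Notch1+/dTAD and at 0 to 441 TPM in Notch1+/-. The summed myeloid level was 776 to 2344 TPM in Notch1+/dTAD, 799 to 1584 TPM in Notch1+/- and 911 to 2596 TPM in WT. The dendritic list had 4 genes higher and 5 lower (median -0.2, or -1.57 without Notch1+/dTAD library 7 and 0.66 without library 9), and its summed level, 2728 to 4204 TPM in Notch1+/dTAD, overlapped the 1461 to 2751 TPM of Notch1+/- in 1 library of each. Cd74, the invariant chain of MHC class II, was at 424, 452 and 462 TPM in Notch1+/dTAD and at 16.1, 59, 262, 352 and 19.5 TPM in Notch1+/- without overlap (log2 difference 2.63, SE 1.19, adjusted p = 0.959). H2-Ab1, a chain of MHC class II, was at 0 in library 7, with 73.4 and 118 TPM in libraries 9 and 14 against 17.1 to 129 TPM. Irf8, which directs dendritic cell and B cell development, was at 1389, 976 and 786 TPM against 320 to 919 TPM, with a log2 difference of 0.87 (SE 0.58). Of the erythroid and megakaryocytic genes only Tfrc was tested, and of the stromal and endothelial genes only Pecam1, with overlapping libraries in both. The part of any other cell type in the differences was not tested.

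Of 38 proliferation genes tested 29 had a higher and 9 a lower mean in Notch1+/dTAD, with a median log2 difference of 0.69 beside 0.35 for all genes, and 0 at an unadjusted p under 0.05. After quantile normalization the split was 24 of 38 and the median 0.47. The mitotic kinase Plk1 was at 321, 261 and 105 TPM in Notch1+/dTAD and at 2.57, 0, 70.8, 157 and 139 TPM in Notch1+/-, while the mitotic kinase Aurkb was at no more than 0.443 TPM in Notch1+/dTAD and at 91.5, 2.04, 0, 74.9 and 156 TPM in Notch1+/-. Within the libraries numbered 10 to 14 the log2 difference was -0.49 for Plk1 and -6.24 for Aurkb. Mcm3, a subunit of the replicative helicase, was the member whose libraries did not overlap, at 177, 31.4 and 184 TPM in Notch1+/dTAD and 427, 551, 300, 233 and 213 TPM in Notch1+/-. Its log2 difference was -1.66 (SE 0.92, adjusted p = 0.959), and within the libraries numbered 10 to 14 it was -0.27. WT libraries of Mcm3, at 264 to 532 TPM, were also above every Notch1+/dTAD library. The summed proliferation level was 15316 to 20311 TPM in Notch1+/dTAD and 11494 to 19303 TPM in Notch1+/-.

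Of 17 mTOR pathway genes 13 were higher and 4 lower (median 0.91, or 0.13 without Notch1+/dTAD library 14), 2 of the 17 at an unadjusted p under 0.05, both higher (background 3.88%). Lamtor5, part of the Ragulator complex that tethers mTORC1 to lysosomes, was at 148, 481 and 265 TPM in Notch1+/dTAD and at 360 TPM in Notch1+/- library 4, with the other 4 at 0, so the groups overlapped through 1 library. Its log2 difference was 6.36 (SE 2.14, adjusted p = 0.755). Pdpk1, the kinase that activates AKT, was at 33.7, 0 and 46.4 TPM against at most 1.44 TPM. Of 11 apoptosis genes 8 were higher and 3 lower (median 1.3). Stk17b, a kinase of lymphocyte apoptosis, was at 2.14, 40.3 and 12.6 TPM in Notch1+/dTAD and at 0 in 4 Notch1+/- libraries with 0.0976 TPM in the remaining one. It did not overlap, with a log2 difference of 3.57 (SE 1.13, unadjusted p = 0.00677, adjusted p = 0.739, limma). Stk17b passed the filter only through the 3 Notch1+/dTAD libraries, so these values describe it and do not test it. All 5 WT libraries listed Stk17b at 39.6 to 87.1 TPM, so that 2 of the 3 Notch1+/dTAD libraries and all Notch1+/- libraries were below every WT library. Among the 3 lower apoptosis genes, Bad was at 0.97, 0 and 0.876 TPM in Notch1+/dTAD and at 0 to 333 TPM in Notch1+/-. Its log2 difference was -4.42 (SE 2.25, adjusted p = 0.959, limma). Of 11 homing and adhesion genes 7 were higher and 4 lower (median 0.84), and Selplg, the ligand of P-selectin used in entry to the thymus, was at 262, 246 and 208 TPM against 0 to 330 TPM.

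Cytosolic ribosomal proteins set the closest bounds. Of 85 genes 79 were tested, 38 higher and 41 lower, with a median log2 difference of -0.01 and a median standard error of 0.36. Their median lay below the 0.35 of all genes on the deposited scale and near the 0.01 of all genes after quantile normalization. For Rps29, the gene with the narrowest interval, the log2 difference was -0.03 with a 95% interval of -0.36 to 0.3, from 27361, 22043 and 28021 TPM in Notch1+/dTAD and 21269 to 30511 TPM in Notch1+/-. A difference of more than 0.36 in either direction lay outside that interval. Rpl38 and Rpl23 likewise had intervals of -0.38 to 0.64 and -0.32 to 0.75. In 3 of the 79, all of the small subunit, the libraries did not overlap and were lower in Notch1+/dTAD (background 0.783%). Rps19 was at 3012, 4011 and 3986 TPM against 4748, 5611, 6123, 5506 and 5720 TPM, a log2 difference of -0.6 (SE 0.26, unadjusted p = 0.034, adjusted p = 0.959). Rps9 was at 8221, 8313 and 10575 TPM against 10748 to 14402 TPM, and Rps20 at 1437, 1426 and 1405 TPM against 1453 to 1721 TPM, with log2 differences of -0.4 and -0.17. WT libraries of Rps19 ran from 1739 to 5664 TPM and so below and above the Notch1+/dTAD libraries. Ribosomal protein genes have many processed copies in the genome, and reads shared with them could not be separated here.

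Of the other lists of abundant complexes, proteins of the mitochondrial ribosome had 33 of 51 genes higher (median 0.83), nuclear-encoded oxidative phosphorylation subunits 50 of 72 (median 0.58), proteasome subunits 22 of 34 (median 0.94), spliceosome proteins 32 of 42 (median 0.55) and translation factors 31 of 45 (median 0.5), against 59.5% of all genes. Among oxidative phosphorylation genes 5 had an unadjusted p under 0.05, 4 higher and 1 lower, and among proteasome genes 4, all higher (background 3.88% higher and 0.964% lower). Ndufv3, a subunit of complex I, was at 184, 423 and 110 TPM in Notch1+/dTAD and at 42.3 TPM in Notch1+/- library 13, with the other 4 at 0 (log2 difference 6.6, SE 1.9, adjusted p = 0.559). Its WT libraries ran from 2.36 to 1632 TPM. The difference in mean log2(TPM + 1) from WT was 0.23 for Notch1+/dTAD and -6.36 for Notch1+/-. Cox4i1, a subunit of cytochrome c oxidase, was at 975, 566 and 353 TPM against 7.8, 5.09, 0, 183 and 44.5 TPM (log2 difference 5.43, SE 1.64, adjusted p = 0.668). Cox7a2l, described above, went the other way. Psmb3 was at 190, 4.87 and 126 TPM against at most 1.56 TPM, while Psma7 was at 452, 598 and 406 TPM against 623 to 1022 TPM. Sf3b4, a splicing factor, was at 122, 61.2 and 46.9 TPM against at most 7.28 TPM, and Mrpl50 at 87, 138 and 148 TPM against at most 12.5 TPM. Of the 21 lists with at least 4 genes tested, 9 had a median that changed sign when 1 library was left out, none of them among these 5. The median of oxidative phosphorylation subunits was 0.25 without Notch1+/- library 6, where that of all genes was 0.27. That of spliceosome proteins was 0.27 without Notch1+/- library 5, beside 0.37 for all genes. That of translation factors was 0.23 without Notch1+/dTAD library 7, beside 0.47. The mitochondrial ribosome and proteasome lists were at 0.47 and 0.43 at the lowest, beside 0.42 and 0.27 for all genes. The plot of list medians sets these lists beside the median of all genes.

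**Figure D5:**
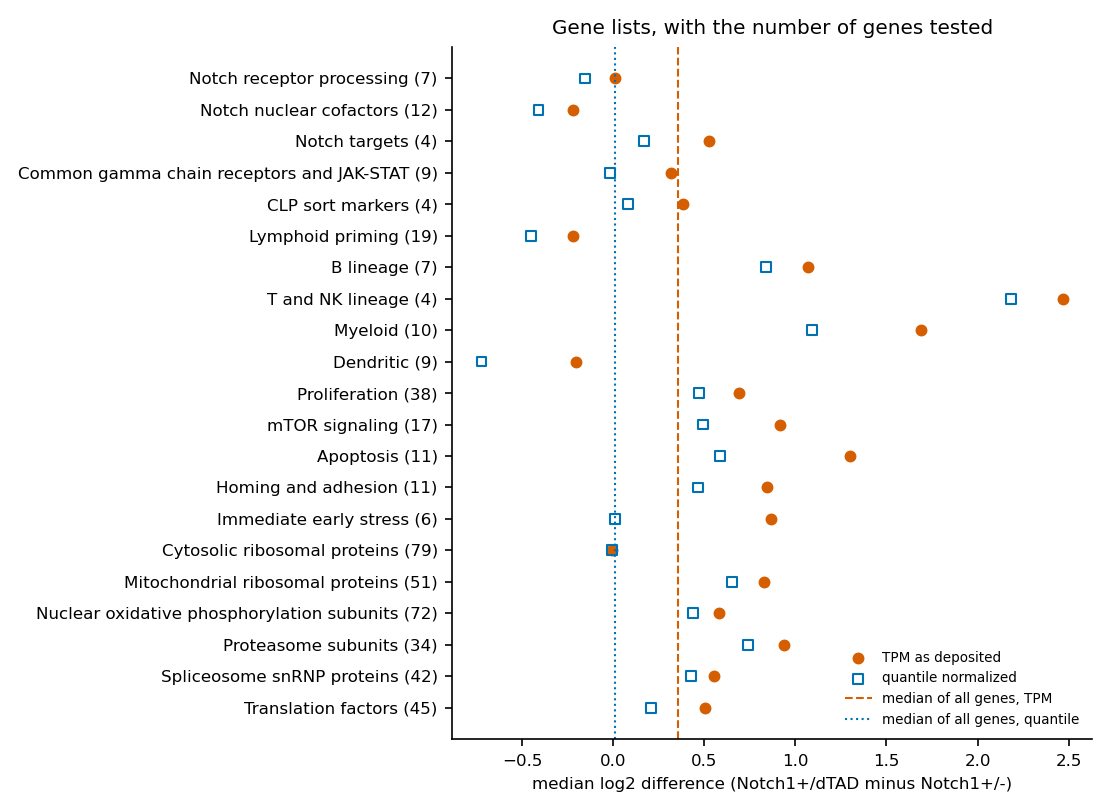
Median log2 difference between Notch1+/dTAD and Notch1+/- CLPs (x axis) over the genes tested of each list of at least 4, with their number in brackets, on deposited TPM (filled) and after quantile normalization (open). Dashed and dotted lines mark the medians of all genes, 0.35 and 0.01, and the list of 79 cytosolic ribosomal proteins lies at -0.01 on both scales.

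Some named genes share their position with others. In GENCODE M21, Sirt2 overlaps Nfkbib, Bola2 overlaps Slx1b and Coro1a, Cab39l overlaps Cdadc1 and Bet1l overlaps Ric8a on the opposite strand, and Clec9a overlaps Clec1b on the same strand. The library kit keeps strand, but whether the counting used it is not given in the sources used here, so values of these genes are uncertain to that extent. Xist was at 140 TPM in Notch1+/dTAD library 14 and 95.6 TPM in Notch1+/- library 12 and at 0.688 TPM or less in the other 6. The Y-linked Eif2s3y was at 5.81 and 104 TPM in Notch1+/- libraries 4 and 5 and at 0.175 TPM or less in the other 6. Notch1+/dTAD libraries 7 and 9 and Notch1+/- libraries 6 and 13 thus had neither above 0.688 TPM. The summed level of the sex-linked list was still 21.7 TPM in Notch1+/- library 6. In WT, Xist was at 187 and 172 TPM in libraries 10 and 11 and at 0.261 TPM or less in the rest. Eif2s3y was at 25.5 and 29.1 TPM in WT libraries 1 and 3. Xist above 0.688 TPM was thus confined to libraries numbered 10 to 14, so a split by library number largely follows Xist. The part of sex in the differences was not tested.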

How the data were processed

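RNA was sequenced from sorted bone marrow CLPs of 13 mice, with all libraries made in one preparation batch by a 3′-end kit that keeps strand. After adapter and quality trimming, the authors aligned to mm10 with STAR, and they deposited TPM per gene in 1 table of WT and Notch1+/- and 1 of WT and Notch1+/dTAD libraries. The annotation and counting settings are not given in the sources used here. The 5 WT columns were identical in both tables and each library summed to 1e+06 TPM, so the tables were joined by gene name, and no further scaling between libraries was applied. Dividing by transcript length is not suited to 3′ reads, so levels of different genes compare only roughly. This also bears on the grouping of genes by mean TPM and on the levels summed over lists.

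Because TPM values are not counts, genes at 1 TPM or more in at least 3 of the 8 libraries were tested on log2(TPM + 1) with limma 3.58.1 in R 4.3.3 (moderated with a trend, genotype as the one term, Benjamini-Hochberg adjustment over the 4980 genes tested). On this scale the differences of low genes are understated. The study's methods name a count-based test, which the deposited values do not allow. Single values were compared by two-sided exact permutation tests over the 56 splits of 3 against 5 libraries, whose smallest p is 0.0179. P-values of single genes were adjusted over all genes tested and not over a list. The script was tested on simulated data. Genes were named by rule: 8 genes of each direction, by smallest p among those whose libraries do not overlap, a panel of 16 pathway and lineage genes, up to 2 genes per list and direction with the smallest p, and genes at 0 throughout one mutant and at 10 TPM or more throughout the other. Exceptions are said to be so in the text or are list members without overlap, and Rps29, Rpl38 and Rpl23 were named for narrow intervals. Members, lists and tests were chosen with earlier results of these data known. Lists not described above by their tested genes were sex-linked and immediate early stress genes. Of the latter 4 genes were higher and 2 lower, with a median log2 difference of 0.87, or -0.6 without Notch1+/dTAD library 7 and 1.93 with a pseudocount of 0.1. The share of mitochondrially encoded transcripts was not analysed here. Alternatives were 2 other pseudocounts (0.1 and 10), other filters, quantile and median-ratio scaling, other variance moderation, array weights, a term for library number range, a model of 13 libraries and leaving out each library. Positions are from GENCODE M21 (GRCm38) and upstream sequences from RefSeq (GRCm38.p6).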

Additional observations from a re-analysis of the deposited data

Results flagged for a closer look

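In groups of 5 libraries, 12 of 53 values checked had 1 library whose gap to its nearest neighbour exceeded 0.71 of the whole range. For normally distributed values about 1 in 20, or 2.65, would do so. TPM with many values at 0 are not of that kind, and several of the genes were chosen for low Notch1+/- libraries. The 12 therefore cannot be judged against 2.65. Of these 12, 9 were a high library, and in 8 the gene was above 0 in that library alone, a condition that sets the ratio to 1 whatever the level. Among the genes higher in Notch1+/dTAD, the single Notch1+/- libraries above 0 were library 4 for Asf1b (0.559 TPM) and Cd7 (17.2 TPM), library 12 for Sirt2 (0.33 TPM), library 13 for Stx2 (0.185 TPM) and Cab39l (0.133 TPM), and library 6 for Ifitm1 (32.5 TPM). Maml1 was above 0 in Notch1+/- library 4 alone (0.358 TPM) and Gata3 in WT library 2 alone (37.9 TPM). Notch2 in Notch1+/- library 4 was at 33.6 TPM, with the next library at 0.831 TPM. Cul1 in Notch1+/- library 13 was low at 28.9 TPM, below the next at 72 TPM. Notch1+/- library 6 was low for Il7r, listed at 0 against 44 TPM in the next, and for the summed erythroid and megakaryocytic genes, at 0 against 32.9 TPM.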

How the results depend on the processing

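The count of 0 genes below an adjusted p of 0.05 held under every alternative run except the model of 13 libraries, which gave 4, and Sirt2 and Cab39l were the named genes of the first 16 below it there, through a filter they passed by their Notch1+/dTAD libraries alone. The count of 241 genes at an unadjusted p under 0.05 was 380 (329 higher) with all genes above 0 and 117 (73 higher) with 1 TPM or more in at least 5 libraries. The 48 lower genes were 78 with array weights and 80 in the model of 13 libraries. Leaving out 1 library gave 150 to 264 genes, 119 to 214 higher and 28 to 93 lower. The lowest total and 122 higher genes came without Notch1+/dTAD library 7, 119 higher genes without library 14, and 93 lower genes without Notch1+/- library 6. Genes without overlap were 97 under the filter of 5 libraries and up to 381 without Notch1+/dTAD library 14.

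Some single genes and list sums changed sign, all far from any threshold. Without 1 library at a time, the log2 difference of Notch1 ran from -1.96 to 0.17 (without Notch1+/dTAD library 14). Rbpj was at 0.14 with array weights, 0.23 and 0.25 without Notch1+/- libraries 5 and 6 and 1.36 without Notch1+/dTAD library 7 (lowest -1.17). Il2rg was at -0.29 after quantile normalization, -0.15 with array weights, -0.95 and -0.72 without Notch1+/- libraries 5 and 6, and -1.72 and -0.35 without Notch1+/dTAD libraries 7 and 14 (highest 3.14). Without Notch1+/- library 6, Il7r was at -0.39 (highest 1.88) and Flt3 at -0.0204 (highest 1.36). Kit was at 0.0269 and 0.0026 with pseudocounts of 0.1 and 10, 0.197 with the library number term, and 0.6 and 0.67 without Notch1+/dTAD libraries 7 and 9 (lowest -0.46). On the log2 scale of summed TPM, the stress list was at -0.34 without Notch1+/dTAD library 7 (range 1.06 at most), the stromal list at -0.98 without library 14 (at most 2.16), the sort markers at -0.59 without Notch1+/- library 6 (at most 1.17), and the lymphoid list, between -0.35 and 0.11, at 0.04 and 0.11 without libraries 5 and 6. The cause was not tested.

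No paired analysis was possible because the labels give no pairing of mice between the genotypes. Unknown depth limits low genes most.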
